A study of Mus musculus with 28 samples.

Results

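At day 4 of neural differentiation, 8613 stretches of the mouse genome over 1 kb from the ends of protein-coding genes carried H3K9ac, H3K9cr and H3K18la together. They were found from the 6 day 4 ChIP-seq peak lists, 2 per mark. For each mark the bases covered in both replicate lists were kept, the 3 sets were merged where they overlapped or touched, and a merged region was kept if it held all 3 marks and lay over 1 kb from every annotated end of a protein-coding gene in GRCm38. The rule sets aside only the outermost ends of protein-coding genes, so a region can lie inside a gene body, at an internal start or at the start of a noncoding gene. These distal triple-marked regions are 18% of the 47842 merged day 4 regions and 45.8% of the 18788 regions with all 3 marks. The other 10175 triple-marked regions lay within 1 kb of a gene end and are called gene-proximal below. The regions were thus chosen by the positions of the day 4 peaks of the 3 marks, and their day 4 marks, widths and distances from genes are given as descriptions, with no test. The nearest regions inside the distance rule lay 1001, 1002, 1008, 1009 and 1009 bases from a gene end, and the nearest outside it 998, 994, 993, 990 and 990 bases.

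Acetylation of histone H3 at lysine 9 is a mark of active promoters and enhancers, placed by acetyltransferases and removed by histone deacetylases. Crotonylation is a bulkier acyl group that can be placed on the same lysine by the same kind of enzymes, and class I deacetylases can remove it. Lactylation, at lysine 18 here, draws on lactyl groups that derive from glycolysis. Enhancers are stretches of open chromatin, often far from the gene they act on, that carry such marks on the flanking nucleosomes, so distal regions with active marks are candidate enhancers, a label that these assays alone do not test.

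The cells were P19, an established mouse embryonal carcinoma line that forms neural cells in retinoic acid. All treated groups received 1 µM retinoic acid in medium with 10% serum, and the labels name day 4 cells neural stem and progenitor cells. Day 4 had 2 libraries each of native ChIP-seq for H3K9ac, H3K9cr and H3K18la, 2 of ATAC-seq, which reads open chromatin, and 2 of RNA-seq. Day 2 cells had MS-275 (1 µL of a 10 mM stock), which blocks class I histone deacetylases, or 1 µL DMSO added after 24 hours of retinoic acid, with 1 ChIP library per mark and 2 RNA libraries for each condition. RNA-seq also covered day 8, after replating without retinoic acid, and untreated cells at day 0, with 2 libraries each. All samples were bulk cultures of 1 cell line, so fewer cells of a type and less RNA per cell cannot be told apart.

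RNA libraries held 18115926 to 19586374 estimated counts, and the peak lists do not give the depth of the other libraries. The pluripotency factor Pou5f1 had 2.31 and 3.0 CPM (counts scaled to library size) at day 4, against 1430 and 1400 CPM at day 0, and the neuronal tubulin Tubb3 had 737 and 729 CPM at day 4, against 66.9 and 72.2 CPM at day 0. The fibrillar collagen gene Col3a1, a mesenchymal marker, had 436 and 495 CPM at day 4, against 2.52 and 2.07 CPM at day 0. A list of 18 mesenchymal genes had 15 that rose and 3 that fell at day 4 against day 0 in edgeR, where 36.2% of all 17789 genes tested rose and 36.1% fell. Its summed level was 1770 and 1930 CPM at day 4, against 599 and 598 CPM at day 0. Of 15 primitive streak and endoderm genes, 12 were tested, 6 rose and 3 fell, and the sum was 175 and 153 CPM at day 4, against 15.3 and 16 CPM at day 0. Lhx1, a homeobox gene that neurons also express, made up nearly all of the day 4 sum, with 167 and 141 CPM at day 4, against 0.105 and 0.448 CPM at day 0. The endoderm factors Gata6, Sox17 and Foxa2 were low at day 4, with 2.47 and 2.83 CPM, 0.629 and 0.999 CPM, and 0.105 and 0 CPM. The part of such cells in the day 4 peaks was not tested.

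Sequences were read for the kinds of listed elements that some of the regions hold, miRNA genes and transcription starts. Of the 8287 regions on chromosomes with listed starts, 82.3% hold none, and there no sequence was read except at miRNA genes. All 3 genes of miR-9 and all 3 of miR-124, microRNAs (miRNAs) that are abundant in the developing brain, lie inside distal triple-marked regions, which also hold Mir137, Mirlet7i, Mir125b-1 and Mir130a. Some of the mature sequences listed by RefSeq (GRCm38.p6) at these loci are printed 5′ to 3′ with the seed, bases 2 to 8, in capitals. Those of miR-124 were not among the sequences used here and are neither printed nor counted below. The miR-9 sequences are the same at its 3 loci.
miR-9-5p: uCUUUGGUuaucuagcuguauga
miR-9-3p: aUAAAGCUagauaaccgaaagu
miR-137-3p: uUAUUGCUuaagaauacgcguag
let-7i-5p: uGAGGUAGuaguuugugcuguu
miR-125b-5p: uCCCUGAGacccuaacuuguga
miR-130a-3p: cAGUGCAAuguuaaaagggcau

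Across the 38 listed hairpins that lie wholly inside distal triple-marked regions there were 62 different mature sequences with 62 different seeds, so no seed is shared between different mature sequences. The hairpins of the 3 miR-9 genes differ outside the mature arms, which are in capitals. Mir9-1 is at chr3:88215598-88215686, Mir9-2 at chr13:83738814-83738885 and Mir9-3 at chr7:79505264-79505353, all on the plus strand.
Mir9-1: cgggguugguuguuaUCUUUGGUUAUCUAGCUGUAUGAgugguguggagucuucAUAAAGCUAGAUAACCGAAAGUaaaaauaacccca
Mir9-2: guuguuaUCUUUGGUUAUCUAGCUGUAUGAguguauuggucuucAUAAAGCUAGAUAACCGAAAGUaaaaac
Mir9-3: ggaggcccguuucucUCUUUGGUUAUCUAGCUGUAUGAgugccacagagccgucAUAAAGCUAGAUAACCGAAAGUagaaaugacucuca

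The second kind is a transcription start that the distance rule does not set aside, an internal start of a protein-coding gene or the start of a noncoding gene. RefSeq lists such starts with windows of 300 bases, 250 before the start and 50 after it. The windows below lie inside distal triple-marked regions and belong to genes whose RNA is described further on. They are Rarb, chr14:16575427-16575726 on the minus strand, with its retinoic acid response element of the DR5 type in capitals, Rara, chr11:98964622-98964921 on the plus strand, with the nuclear receptor motif AGGTCA in capitals, and Pax6, chr2:105682213-105682512 on the plus strand, with the MEIS-type motif TGACAG in capitals, here on the opposite strand. The long noncoding RNA (lncRNA) genes that host miR-9 follow. They are C130071C03Rik, chr13:83721131-83721430 on the plus strand, with the E-box CAGCTG in capitals, and Mir9-3hg, chr7:79499776-79500075 on the plus strand, with the Sp and KLF motif GGGCGG in capitals on either strand. Both genes have further start windows in the same regions, which are not printed. Those of C130071C03Rik, chr13:83727856-83728155 and chr13:83732243-83732542, held none of the motifs searched. That of Mir9-3hg, chr7:79515185-79515484, held GGGCGG.
Rarb: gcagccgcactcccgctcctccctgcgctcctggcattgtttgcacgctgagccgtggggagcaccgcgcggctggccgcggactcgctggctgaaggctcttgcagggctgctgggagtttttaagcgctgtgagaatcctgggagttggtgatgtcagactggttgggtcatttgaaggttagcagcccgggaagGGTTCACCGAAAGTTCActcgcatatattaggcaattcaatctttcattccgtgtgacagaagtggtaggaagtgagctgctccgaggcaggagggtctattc
Rara: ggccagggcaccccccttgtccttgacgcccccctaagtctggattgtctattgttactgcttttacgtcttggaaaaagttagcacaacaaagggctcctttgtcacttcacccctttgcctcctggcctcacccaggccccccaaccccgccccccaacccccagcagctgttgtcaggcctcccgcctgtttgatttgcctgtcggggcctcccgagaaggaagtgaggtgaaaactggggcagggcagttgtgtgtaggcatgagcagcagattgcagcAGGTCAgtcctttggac
Pax6: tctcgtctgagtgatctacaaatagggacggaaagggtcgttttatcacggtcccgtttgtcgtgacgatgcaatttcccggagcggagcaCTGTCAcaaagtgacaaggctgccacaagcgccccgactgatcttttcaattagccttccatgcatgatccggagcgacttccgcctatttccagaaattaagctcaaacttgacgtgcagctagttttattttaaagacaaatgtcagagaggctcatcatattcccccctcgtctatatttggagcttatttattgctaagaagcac
C130071C03Rik: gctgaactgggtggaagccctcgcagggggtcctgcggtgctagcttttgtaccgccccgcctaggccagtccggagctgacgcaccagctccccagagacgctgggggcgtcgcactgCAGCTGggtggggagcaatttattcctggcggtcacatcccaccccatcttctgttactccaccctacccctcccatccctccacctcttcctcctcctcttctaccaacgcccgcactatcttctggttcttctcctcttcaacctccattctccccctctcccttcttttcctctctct
Mir9-3hg: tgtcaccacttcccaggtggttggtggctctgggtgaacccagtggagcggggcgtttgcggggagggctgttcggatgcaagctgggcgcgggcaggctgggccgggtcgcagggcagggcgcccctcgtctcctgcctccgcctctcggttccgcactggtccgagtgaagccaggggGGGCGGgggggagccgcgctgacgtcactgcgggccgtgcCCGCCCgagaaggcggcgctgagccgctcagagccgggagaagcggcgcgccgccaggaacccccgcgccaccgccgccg

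Motifs were searched on both strands of these windows, overlapping matches included, and a match is a description of the letters. Distal triple-marked regions held 1660 of the 32817 listed windows, 958 at protein-coding starts and 702 at lncRNA starts. The Rarb window was the only 1 of the 958 with a DR5 match, a share of 0.104%, against 0.0801% of all 21230 protein-coding windows. GGGCGG was in 61.9% of the 958 windows, 69.1% of the 8173 protein-coding windows in gene-proximal regions and 46.2% of all protein-coding windows. CCGGAAG, the ETS motif, was in 11.6% of the 958 windows, 20.7% of the gene-proximal windows and 11.6% of all protein-coding windows. The motifs marked in the Rara and Pax6 windows were less common in the 958 windows than in all protein-coding windows. AGGTCA was in 12.6% of the 958, 10.6% of the gene-proximal and 14.7% of all protein-coding windows. TGACAG was in 16.3%, 15.6% and 18.7% in the same order. At lncRNA starts, CAGCTG was in 21.1% of the 702 windows and 17.7% of all 11587 lncRNA windows, and GGGCGG in 35.8% and 16.3%. The median GC content was 61.0% for the 958 windows and 54.3% for the 702, against 56.3% of all protein-coding and 48.3% of all lncRNA windows.

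By median, the regions were narrower than those near gene ends and weaker in 2 of the 3 marks. Their median width was 1756 bases (quartiles 1156 and 2583, range 265 to 29980), against 2145 bases for gene-proximal regions. The fold enrichment printed here is the authors' own value for the best peak over a region in a list. H3K9ac had a median fold of 14.2 and 12.9 in replicates 1 and 2 over distal regions, against 58.2 and 57.9 over gene-proximal regions. H3K9cr had 9.45 and 9.37 over distal regions, against 52.9 and 52.4. H3K18la had 6.18 and 5.89 over distal regions, against 6.33 and 6.29. In words, H3K9ac and H3K9cr were far lower in distal than in gene-proximal regions in both replicates, while the H3K18la medians of the 2 kinds of region lay close together. H3K9ac and H3K9cr also covered fewer bases in distal regions, with medians of 1375 and 910, against 2080 and 1880 in gene-proximal regions. H3K18la covered more, with a median of 1242 bases in distal regions, against 1001 in gene-proximal regions.

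**Figure D1:**
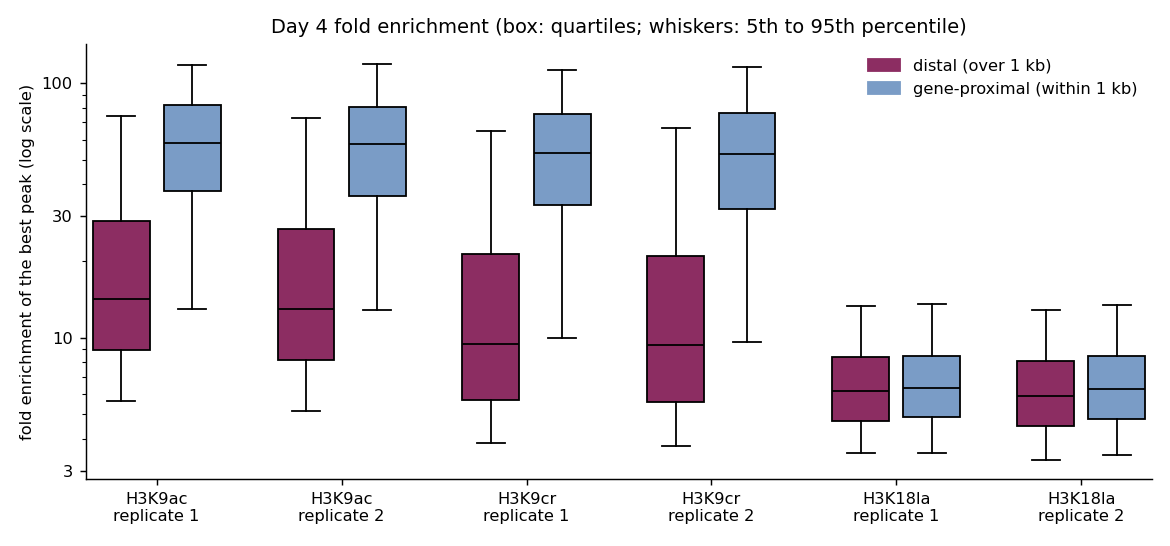
Fold enrichment of the best day 4 peak (vertical axis, log scale) for each mark and replicate, in distal triple-marked regions (left box of a pair) and gene-proximal ones (right box). Boxes are quartiles and whiskers the 5th to 95th percentile over 8613 and 10175 regions. The H3K9ac and H3K9cr boxes stand apart, with medians such as 14.2 against 58.2, while the H3K18la boxes cover nearly the same range, with medians of 6.18 against 6.33 in replicate 1.

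Over the 8613 regions, the folds of H3K9ac and H3K9cr ranked alike, with Spearman values of 0.904 to 0.94 between their libraries, close to the 0.918 between the H3K9ac replicates and 0.915 between the H3K9cr replicates. H3K18la replicates had a Spearman value of 0.716, and H3K18la against the other marks had 0.322 to 0.452. These values describe regions that share libraries, width and base composition. The 2871 widest regions had median H3K9ac folds of 22.1 and 20.8 and H3K18la folds of 8.44 and 8.13, and the 2872 narrowest had 9.81 and 9.07, and 4.84 and 4.60.

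Of the regions, 52.5% (4524) lay inside a protein-coding gene, 15.2% (1309) inside a lncRNA gene only, and 32.3% (2780) outside both. The median distance to the nearest protein-coding gene start was 30370 bases. It was within 10 kb for 25.1% of the regions, 10 to 100 kb for 54.2% and over 100 kb for 20.7%. They also clustered, with another distal triple-marked region within 10 kb for 30.9% of them. On chromosomes with listed windows, 900 regions (10.9% of 8287) held an internal start of a protein-coding gene, 569 (6.87%) a lncRNA start and 6818 (82.3%) no listed start. H3K9ac had a median fold of 47.1 and 45.7 at internal starts, 23.7 and 21.3 at lncRNA starts and 12.5 and 11.5 at regions with no start. H3K18la had 6.33 and 6.33, 7.0 and 6.68, and 6.1 and 5.75 in the same order. The difference between classes was thus several-fold for H3K9ac and small for H3K18la.

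Open chromatin was not used to choose the regions. An ATAC peak overlapped 61.5% of distal triple-marked regions in replicate 1 and 53.0% in replicate 2, against 88.2% and 85.3% of gene-proximal ones. In both ATAC lists at once it was 46.3% (exact 95% binomial interval 45.3% to 47.4%, counting error only), against 82.25% (81.49% to 82.99%) of gene-proximal regions. Among distal regions that lacked a mark, both ATAC lists had a peak at 28.1% of the 2871 with H3K9ac and H3K9cr but no H3K18la, and at 11.3% of the 4271 with H3K9ac and H3K18la but no H3K9cr. Those regions were narrower, with median widths of 681 and 818 bases. Among distal triple-marked regions the share was 29.6% in the narrowest 2872, with a median width of 969 bases, 47.3% in the 2870 of middle width and 62.1% in the 2871 widest. Within the distal triple-marked regions the share was 76.6% at internal starts, 55.5% at lncRNA starts and 41.3% where no start is listed. Neither ATAC list had a peak at 31.8% of distal triple-marked regions, against 8.74% of gene-proximal ones. By distance to the nearest gene start the share in both ATAC lists was 44.4% within 10 kb, 46.0% at 10 to 100 kb and 49.5% over 100 kb.

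The 3 widest regions each held a miR-9 or miR-124 gene. Of 1228 listed miRNA genes, 48 lay in 41 distal triple-marked regions and 97 in gene-proximal ones. Of the 41 distal regions, 22 had an ATAC peak in both lists, where 46.3% of all distal triple-marked regions did. The widest region of all, chr13:83712965-83742944 with 29980 bases, holds Mir9-2 in the lncRNA gene C130071C03Rik. Its H3K9ac folds were 164 and 156, its H3K9cr folds 124 and 144 and its H3K18la folds 8.44 and 12.7 in replicates 1 and 2. The next, chr7:79495717-79522715 with 26999 bases, holds Mir9-3 and had H3K9ac folds of 96.9 and 94.2, H3K9cr folds of 86.5 and 81.3 and H3K18la folds of 18.5 and 15.6. The next again, chr3:17782397-17799155 with 16759 bases, holds Mir124a-2 and had H3K9ac folds of 145 and 160, H3K9cr folds of 133 and 153 and H3K18la folds of 26.7 and 24.6. Both ATAC lists had peaks in the Mir9-2 and Mir9-3 regions, and only replicate 1 had one in the Mir124a-2 region, with a fold of 3.93.

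**Figure D2:**
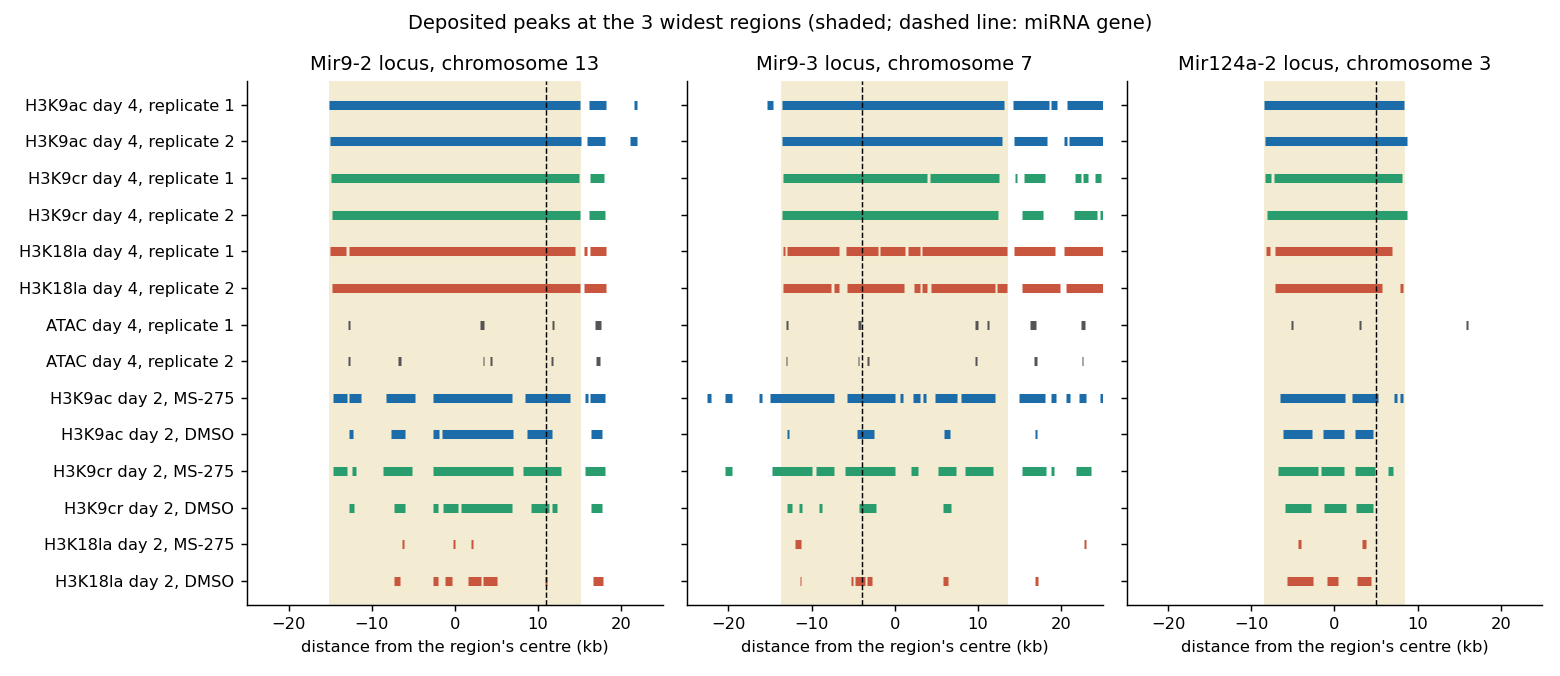
Deposited peaks (bars) in the deposited lists (rows) at the 3 widest distal triple-marked regions, shaded, by distance from the region's centre (kb). The dashed line is the miRNA gene. The day 4 H3K9ac peaks, 1 per list and region, fill the regions nearly end to end. Day 4 H3K18la is in several pieces at Mir9-3, with 6 and 7 peaks in replicates 1 and 2. The day 2 peaks cover parts of the regions, with few H3K18la peaks in MS-275.

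The remaining miR-9 and miR-124 loci had lower H3K9ac folds than the 3 widest regions, while their H3K18la folds overlapped. The Mir9-1 region, chr3:88214444-88217050, had H3K9ac folds of 21.5 and 23.9, H3K9cr folds of 21.5 and 18.4 and H3K18la folds of 6.46 and 4.02. The Mir124a-1 region, chr14:64584745-64594966, had H3K9ac folds of 70.7 and 59.7, H3K18la folds of 10.1 and 7.38 and no ATAC peak in either list, and the Mir124a-3 region, chr2:180888613-180895563, had H3K9ac folds of 71.6 and 72.6, H3K18la folds of 13.7 and 15.1 and ATAC peaks in both. The H3K18la folds of the Mir124a-3 region were thus higher than those of the Mir9-2 region in both replicates. Mir125b-1, inside Mir100hg at chr9:41578963-41586823, had H3K9ac folds of 85.3 and 85.3, and Mirlet7i, at chr10:122983199-122985828, had 98.7 and 113. Mir137, at chr3:118433352-118435360, was among the weaker with 20.3 and 16.6. At day 2 all 3 marks were listed at each of these loci in DMSO. In MS-275, H3K9ac and H3K9cr peaks were listed at each, but H3K18la peaks were listed at the miR-9 and miR-124 loci and not at Mir125b-1, Mirlet7i or Mir137.

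The RNA of the host genes of these miRNAs was lower at day 0 and day 2 than at day 4. These genes were chosen after their values were seen. C130071C03Rik had 1.37 and 2.24 CPM at day 0, 10.3 and 10.2 CPM at day 2 with MS-275, 39.7 and 40 CPM at day 2 with DMSO, 311 and 303 CPM at day 4 and 188 and 188 CPM at day 8. The day 4 libraries lay above all others. It rose by 7.42 ± 0.107 (log2 fold change ± SE) at day 4 against day 0, with an edgeR adjusted p of 3.31e-18, and by 2.95 against day 2 DMSO. Mir9-3hg had 1.21 and 0.56 CPM at day 0, 2.08 and 1.69 CPM with MS-275, 1.1 and 1.48 CPM with DMSO, 122 and 124 CPM at day 4 and 69.1 and 67.6 CPM at day 8. It stayed near its day 0 level at day 2 and rose by 6.58 ± 0.143 on the log2 scale at day 4 against day 2 DMSO, with an edgeR adjusted p of 1.49e-15. Gm3764, the host of Mir9-1, had no counts at day 0 and 26.8 and 25 CPM at day 4, at least 326-fold higher against a floor of 3 counts over the day 0 group.

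The miR-124 hosts were likewise highest at day 4 or day 8. Mir124-2hg had 10.6 and 10.6 CPM at day 0, 8.61 and 9.75 CPM with MS-275, 33.8 and 34.8 CPM with DMSO, 189 and 178 CPM at day 4 and 157 and 188 CPM at day 8. Mir124a-1hg had 142 and 136 CPM at day 4, against 1.16 and 1.18 CPM at day 0. Mir100hg, the host of Mir125b-1, had 177 and 182 CPM at day 4, against 7.93 and 8.01 CPM at day 0. All 3 rose in edgeR at day 4 against day 0, by 4.11, 6.89 and 4.49 on the log2 scale. With MS-275 against DMSO, C130071C03Rik fell by 1.95, Mir124-2hg fell by 1.90 and Mir100hg fell by 1.73. Gm3764 went the other way, with 8.66 and 10.1 CPM with MS-275, against 5.76 and 3.64 CPM with DMSO, and rose by 0.99 (edgeR adjusted p = 9.16e-05). The values for Mir9-3hg (0.56) and Mir124a-1hg (0.19) did not pass the test. These RNAs are the host transcripts, and the mature miRNAs were not measured.

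**Figure D3:**
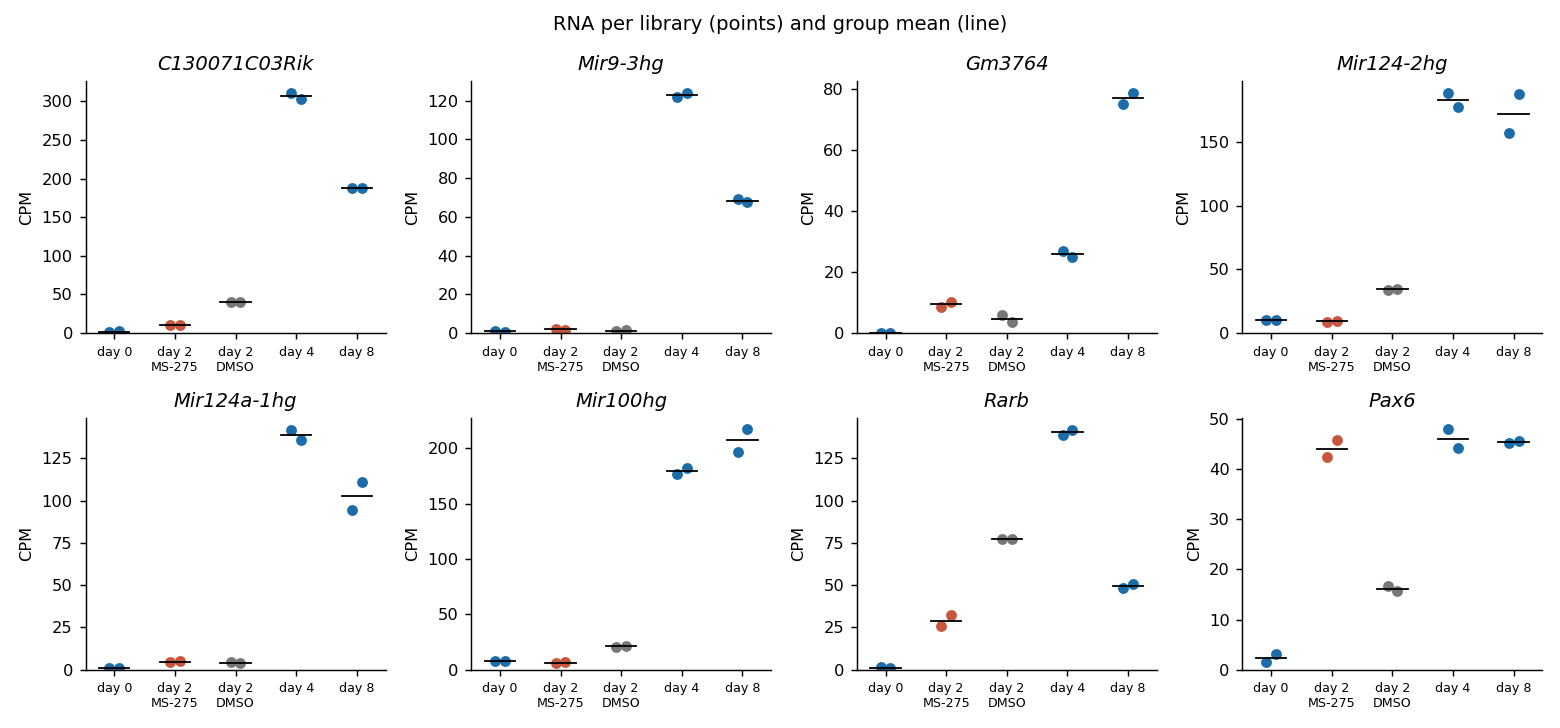
RNA level (CPM, vertical axis from 0) of 6 host genes of miRNAs in distal triple-marked regions and of Rarb and Pax6, by group. Points are the 2 libraries of a group and lines their mean. C130071C03Rik reaches 311 and 303 CPM at day 4 and is at 10.3 and 10.2 CPM with MS-275, below the 39.7 and 40 CPM with DMSO, whereas Pax6 is higher with MS-275 (42.3 and 45.7 CPM) than with DMSO (16.7 and 15.6 CPM).

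Among the regions that held internal starts were those in Rarb, Rara and Pax6, named for their genes and not for their strength. The Rarb region, chr14:16570749-16577646, surrounds the DR5 element printed above and had H3K9ac folds of 129 and 133, H3K9cr folds of 98.4 and 114, H3K18la folds of 11.5 and 13.2 and ATAC folds of 10.7 and 9.23. All 3 marks were already listed there at day 2, with folds of 19.3, 18.4 and 6.58 for H3K9ac, H3K9cr and H3K18la in MS-275, and 108, 104 and 14.6 in DMSO. Folds of these lists are not scaled to each other. The median H3K9ac fold over all peaks was 4.73 in the MS-275 list and 13.8 in the DMSO list. Rarb, a retinoic acid receptor, had 1.58 and 0.897 CPM at day 0, 25.6 and 32.5 CPM with MS-275, 77.1 and 77.2 CPM with DMSO, 139 and 142 CPM at day 4 and 48.1 and 50.8 CPM at day 8. It rose by 6.81 ± 0.155 on the log2 scale at day 4 against day 0 (edgeR adjusted p = 4.81e-16) and fell by 1.41 ± 0.0981 with MS-275 against DMSO (edgeR adjusted p = 2.85e-09).

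The Rara region, chr11:98958665-98972290, spans 13626 bases of another retinoic acid receptor gene and had H3K9ac folds of 80.7 and 94.1. By nearest start it was assigned to Gjd3, 7657 bases away. Rara had 235 and 252 CPM at day 4, against 92.5 and 92.5 CPM at day 0, and rose by 1.40 on the log2 scale. Unlike Rarb it was higher with MS-275, at 194 and 181 CPM, than with DMSO, at 137 and 127 CPM, a rise of 0.51 in edgeR. At day 2 the Rara region had H3K9ac, H3K9cr and H3K18la folds of 34.3, 33.2 and 6.83 in MS-275. In DMSO they were 120, 113 and 14.8. These folds were thus lower with MS-275, as in the Rarb region, while the RNA of Rara was higher. The Pax6 region, chr2:105671771-105683011, spans 11241 bases at an internal start of this neural progenitor transcription factor and had H3K9ac folds of 59.4 and 57.4 and H3K18la folds of 7.16 and 6.59. Pax6 had 47.9 and 44.1 CPM at day 4, against 1.47 and 3.19 CPM at day 0. It rose by 4.31 ± 0.168 on the log2 scale (edgeR adjusted p = 4.55e-13), or by 4.96 without day 0 replicate 2, and by 1.44 with MS-275 against DMSO. Of 827 tested protein-coding genes with an internal start in a distal triple-marked region, 664 (80.3%) were called by edgeR at day 4 against day 0 at an adjusted p under 0.05, where 72.3% of all 17789 genes tested were called. They rose in 399 cases (48.2%) and fell in 265 (32%), against 36.2% and 36.1% of all genes tested.

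By the lowest rank of the best peak over the 6 day 4 lists, the 8 strongest regions had Unk, Sema4c, Bcl2l1, Cypt12, Gnas, Hexim2, Skap1 and Mllt10 as nearest genes. The first 3 hold internal starts, and the Cypt12 region is the Mir124a-2 locus. The strongest, chr11:116030202-116032202 in Unk, had H3K9ac folds of 195 and 212, H3K9cr folds of 182 and 215 and H3K18la folds of 22.6 and 21.2. The region near Skap1, chr11:96735096-96747883, had the highest H3K18la folds of the 8, 31.4 and 26.3, with H3K9ac folds of 176 and 171. All 8 carried all 3 marks at day 2, in MS-275 and in DMSO. Their H3K9ac folds were 20.3 to 35.1 in the MS-275 list, whose median over all peaks is 4.73, and 64.6 to 192 in the DMSO list, whose median is 13.8.

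Each region was assigned to the protein-coding gene with the nearest start. The 8613 regions fell to 4592 genes, 21.0% of the 21887 listed. Of these, 2805 had 1 region, 1500 had 2 to 4 and 287 had 5 or more. Zfp608 had the most, 23, followed by Gins2 with 19, Skap1 and Tnrc6c with 15 each, Ccdc182, Bcor and Mn1 with 14 each, Septin9 and Sox4 with 13 each, and Cstad, Foxp1 and Zmiz1 with 12 each. The regions assigned to Zfp608, a zinc finger gene, lay 4310 to 551647 bases from its start and covered 84983 bases in sum. ATAC peaks were in both lists at 13 of them, and all 3 marks were listed at 19 in MS-275 and 10 in DMSO. All 19 regions assigned to Gins2, a replication factor gene, lay inside a protein-coding gene, since the rule takes the nearest start and not the gene body around the region. For 1722 of the 8613 regions, the gene body that held the region or lay nearest to it was that of another gene.

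The 10 of these 12 genes that were tested were mostly higher at day 4 than at day 0. Sox4, a transcription factor of neural progenitors and young neurons, had 943 and 956 CPM at day 4, against 200 and 188 CPM at day 0, a rise of 2.29 ± 0.0535 on the log2 scale (edgeR adjusted p = 6.66e-16). Zmiz1, a transcriptional coregulator, had 460 and 474 CPM at day 4, against 83.7 and 77.8 CPM at day 0, and rose by 2.53. Zfp608, Gins2, Skap1, Mn1, Septin9 and Foxp1 also rose in edgeR, by 0.62, 0.52, 3.03, 1.62, 1.43 and 0.43. Bcor, a transcriptional corepressor gene on the X chromosome, had 106 and 110 CPM at day 4, against 277 and 267 CPM at day 0, and fell by 1.33. Tnrc6c, which acts in silencing by miRNAs, had a value of −0.11 that did not pass the test, though it did without the first day 4 library. Skap1 was low, and its value ranged between 2.52 and 3.75 with 1 library left out. Of these 10 genes, 8 rose and 1 fell, where 36.2% of all genes tested rose and 36.1% fell.

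At day 2, all 3 marks were listed at 56.9% of the distal triple-marked regions in DMSO (exact 95% interval 55.9% to 58.0%) and no mark at 21.6%, against 90.1% and 1.38% of gene-proximal regions. Each day 2 value is 1 library, so there is no test and intervals cover counting error only. Among the distal regions, the 1863 with no DMSO mark at day 2 had median H3K9ac folds of 9.04 and 8.20 at day 4, and the 4902 with all 3 marks had 22.9 and 21.1. Both ATAC lists had a peak at 27.2% of the regions with no DMSO mark and 57.2% of those with all 3. The median distance to the nearest gene start was 49910 bases for regions with no DMSO mark and 22840 bases for those with all 3. H3K18la without the other marks was listed at 7.23% of distal regions in DMSO, and H3K9ac alone at 1.89%. All 3 marks in DMSO were listed at 69.1% of regions within 10 kb of a gene start, 56.5% at 10 to 100 kb and 43.3% beyond 100 kb.

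Between MS-275 and DMSO the shares differed in opposite directions for the marks. H3K9ac peaks were listed at 88.5% of distal triple-marked regions in MS-275 and 68.3% in DMSO, and H3K9cr peaks at 83.95% in MS-275 and 64.7% in DMSO. H3K18la peaks were listed at 41.7% in MS-275 and 70.4% in DMSO. Of the distal regions without a peak in DMSO, MS-275 had H3K9ac at 67.9%, H3K9cr at 60.4% and H3K18la at 16.7%. Of those with a peak in DMSO, MS-275 lacked H3K9ac at 2.02%, H3K9cr at 3.23% and H3K18la at 47.7%. The pattern of H3K9ac and H3K9cr without H3K18la was found at 42.1% of the regions in MS-275 and 4.98% in DMSO, and all 3 marks together at 41.1% in MS-275 and 56.9% in DMSO. Where the peaks of each mark must cover at least 50% of a region, all 3 were listed at 8.21% in MS-275 and 23.8% in DMSO.

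The 1863 distal regions with no mark in DMSO divided in MS-275 into 701 with no mark, 247 with 1, 676 with 2 and 239 with all 3. Among regions that carried all 3 marks in DMSO, H3K9ac was listed in MS-275 at 98.8%, H3K9cr at 97.5% and H3K18la at 56.2%. By width, H3K18la in MS-275 was listed at 26.3% of the narrowest, 39.5% of the middle and 59.4% of the widest distal regions. In DMSO it was listed at 57.2%, 71.4% and 82.45% in the same order. By class, it was listed in MS-275 at 40.7% of regions with an internal protein-coding start, 51.8% of those with a lncRNA start and 40.4% of those with no start. The DMSO shares of these classes were 88.9%, 79.4% and 67.1%.

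Gene-proximal regions were nearly all marked by H3K9ac in both conditions, 99.4% in MS-275 and 97.9% in DMSO for H3K9ac. Their H3K18la share was 38.2% in MS-275 and 91.1% in DMSO. The lists themselves differ: those of MS-275 cover 122, 107 and 16.3 Mb for H3K9ac, H3K9cr and H3K18la, and those of DMSO 34.2, 32.5 and 26.8 Mb. Their median folds are 4.73, 5.02 and 4.07 in MS-275 and 13.8, 16.7 and 5.14 in DMSO. The part of list size in the shares was not tested. Counting only peaks with a −log10 q-value of at least 5, the shares were 84.0% in MS-275 and 63.9% in DMSO for H3K9ac, 78.95% in MS-275 and 60.7% in DMSO for H3K9cr, and 25.4% in MS-275 and 61.9% in DMSO for H3K18la.

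**Figure D4:**
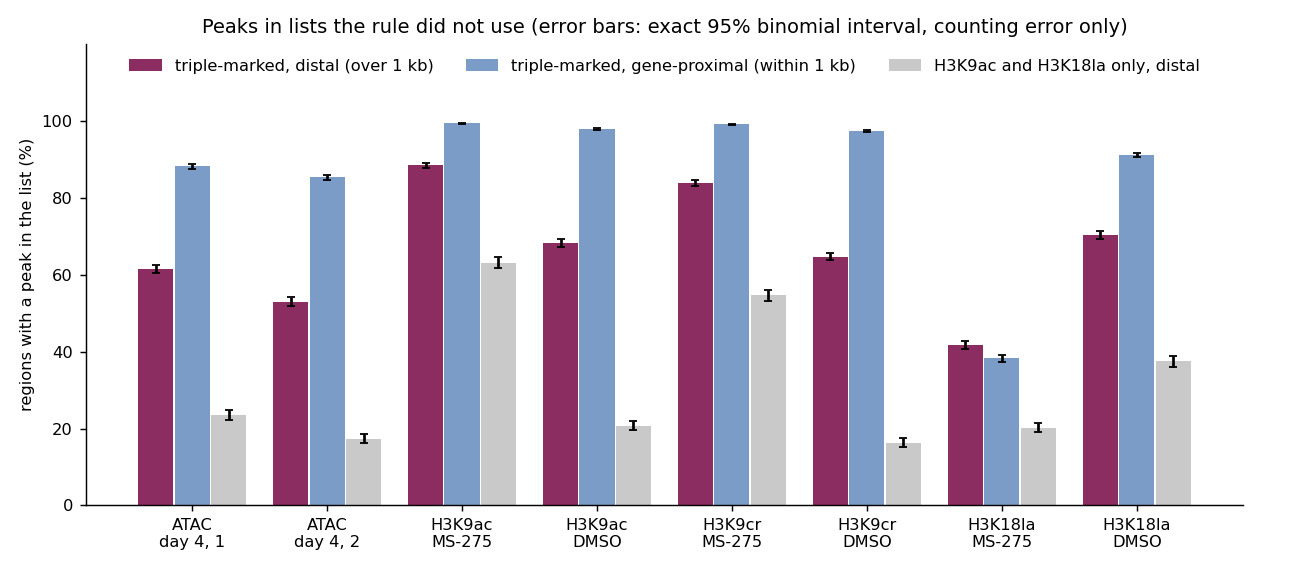
Share of regions (percent, vertical axis from 0) with a peak in the 2 day 4 ATAC lists and the 6 day 2 ChIP lists, which the choice of regions did not use, for distal triple-marked, gene-proximal triple-marked and distal regions with H3K9ac and H3K18la only. Error bars are exact 95% binomial intervals for counting error. In distal triple-marked regions H3K9ac is at 88.5% with MS-275 and 68.3% with DMSO, and H3K18la at 41.7% and 70.4%.

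RNA of the nearest genes gave a readout that the choice of regions did not use. Of the 4592 genes, 4521 were matched to the RNA table and 4024 passed the filter on low counts. At day 4 against day 0, 3275 of them (81.4%) were called by edgeR at an adjusted p under 0.05, where 72.3% of all 17789 genes tested were called. The nearest genes rose in 1924 cases (47.8%) and fell in 1351 (33.6%), against 36.2% and 36.1% of all genes tested. Their median log2 fold change was 0.24, against 0.01 over all genes tested. Counting only changes of at least 2-fold, 31.1% rose and 16.5% fell, against 20.7% and 18.2% of all genes tested. By the number of distal triple-marked regions per gene, the share that rose was 42.8% of the 2406 genes with 1 region, 53.0% of the 1361 with 2 to 4 and 67.7% of the 257 with 5 or more, with medians of 0.10, 0.41 and 1.05.

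At day 4 against day 2 DMSO, 2958 of the 4024 nearest genes were called (73.5%), where 61.2% of all genes tested were. They rose in 1823 cases (45.3%) and fell in 1135 (28.2%), against 30.6% and 30.6% of all genes tested, and 62.6% of those with 5 or more regions rose. At least 2-fold changes were 23.6% up and 8.35% down, against 14.9% and 9.91% of all genes tested. This comparison shares the day 4 libraries with the one before, and the day 4 cells received no DMSO. Genes nearest to a region with no DMSO mark at day 2 rose in 673 of 1191 cases (56.5%), with a median of 0.48. Genes nearest to a region with all 3 marks at day 2 rose in 1293 of 2934 cases (44.1%), with a median of 0.16, and a gene can be in both groups. Levels differed too: the median CPM at day 4, which is not scaled for gene length, was 84.5 for genes with 5 or more regions, 32.7 for all nearest genes and 16.1 for all genes tested, and the part of the level in the share called was not tested.

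**Figure D5:**
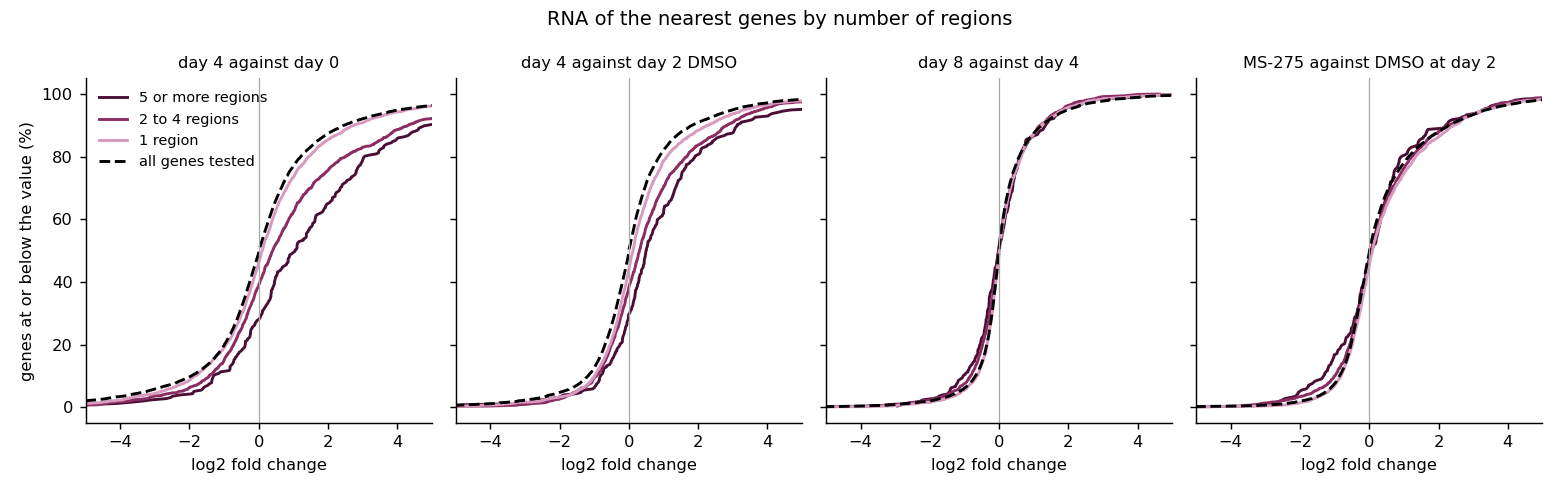
Cumulative share of genes (percent, vertical axis) by log2 fold change (horizontal axis) in 4 RNA comparisons, for genes nearest to 5 or more, 2 to 4 or 1 distal triple-marked region and for all 17789 genes tested (dashed). At day 4 against day 0 the lines lie further right the more regions a gene has, with medians of 1.05, 0.41 and 0.10 against 0.01. At day 8 against day 4 the 4 lines nearly coincide at 0.

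LncRNA genes with a start inside a distal triple-marked region had lower counts, and 172 of the 351 matched were tested. At day 4 against day 0, 81 rose (47.1%) and 31 fell (18%), with a median of 0.80, where 36.2% of all genes tested rose and 36.1% fell. Of the nearest genes that were at 0 at day 0, Dcc, a netrin receptor that guides axons, had 365 and 333 CPM at day 4, at least 4390-fold higher. Nhlh2, Pax3 and Neurog1, transcription factors of young neurons, dorsal neural tube and neural crest, and sensory neuron precursors, were at least 3080-fold, 2330-fold and 1330-fold higher. Uncx, a homeobox gene, had 91.1 and 89.0 CPM at day 4, at least 1130-fold higher, and was nearest to 8 regions that lay 1647 to 73954 bases from its start. The largest falls among nearest genes were those of Utf1, a pluripotency gene, (log2 fold change −10.91), Cnn1 (−8.30), Nr5a1 (−7.88), Tmem154 (−7.0) and Plcg2 (−6.55). Each of these genes had 1 region except Tmem154, which had 2. The values for Tmem154 and Utf1 rest on 5 and 6 counts over the day 4 libraries. Tmem154 was at −6.04 without day 4 replicate 1 and −11.47 without day 4 replicate 2, and Utf1 at −12.40 and −10.28, so the order of these falls depends on 1 library.

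Gene lists, drawn up with earlier results of these data known, show which neural genes the regions lay beside. Of 27 neural stem and progenitor genes, 20 (74.1%) were nearest to at least 1 distal triple-marked region, against 21.0% of all protein-coding genes, and 100 regions in all were assigned to them. Of the 20, 19 rose at day 4 against day 0 and 1 did not pass the test, with a median of 4.26, where 36.2% of all genes tested rose and the median over them was 0.01. In the whole list, nearest to a region or not, 25 of the 27 genes rose and 1 fell. These counts thus do not set apart the genes beside a region from the rest of the list. Sox9 had the most regions of the list, 12, and had 115 and 111 CPM at day 4, against 1.37 and 1.91 CPM at day 0. Sox2, a factor of both pluripotent and neural progenitor cells, had 11 regions that lay 9151 to 453586 bases from its start. Its strongest region, chr3:34659146-34669294, had H3K9ac folds of 56.2 and 83.5 and was listed with all 3 marks at day 2 in both conditions. Sox2 had 281 and 268 CPM at day 4, against 194 and 197 CPM at day 0, and rose by 0.49. Sox11 and Msi1 had 8 regions each and rose by 2.22 and 2.05.

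The 11 regions assigned to Sox2 differed widely in strength. H3K9ac folds in replicate 1 were 6.13 at the weakest, 218324 bases from the start, and 56.2 at the strongest. A pair of regions at higher coordinates, chr3:35083048-35086087 and chr3:35087754-35091547, lay 433053 and 437759 bases from the start and had H3K9ac folds of 19 and 11.7, and of 31.6 and 26.5, in replicates 1 and 2. The second of the pair carried ATAC peaks in both lists and all 3 marks in DMSO, with no H3K18la peak in MS-275. Of the 5 regions assigned to Pax6, the one that holds the internal start was the strongest, and 3 others lay 52364 to 57046 bases away with H3K9ac folds of 5.61 to 7.8 in replicate 1. The 2 regions assigned to Rarb lay 89167 and 347041 bases from its start and had H3K9ac folds of 16.6 and 32.5, and of 22.2 and 12, in replicates 1 and 2. The region at the internal start of Rarb is not 1 of these 2. By nearest start it was assigned to Top2b, 205543 bases away.

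In the next lists too, the counts are to be read against the 21.0% of all protein-coding genes that were nearest to a region and the 36.2% of all genes tested that rose and 36.1% that fell. They are also to be read against the whole lists, nearest to a region or not. There, 26 of 28 neuron genes rose and 1 fell, and 27 of 30 axon guidance genes rose and 3 fell. Of the 16 neural crest genes, 13 rose and 2 fell. Of 28 neuron genes, 21 (75%) were nearest to a region, of which 20 rose and 1 did not pass the test, with a median of 5.13. Ebf1, a factor of young neurons, had 8 regions and 127 and 118 CPM at day 4, against 3.10 and 3.14 CPM at day 0. Of 30 axon guidance genes, 24 (80%) were nearest to a region, of which 22 rose and 2 fell, with a median of 3.34. Slit1, a repellent ligand, its counterpart Ntn1 (netrin 1) and the netrin receptor Unc5a had 7, 6 and 7 regions and rose by 3.70, 5.90 and 1.12. Of 16 neural crest genes, 13 (81.2%) were nearest to a region, 11 rose and 1 fell, with a median of 4.33 when genes at 0 are set at their bound. Neurog1 had 3 regions. The strongest, chr13:56220052-56224957, had H3K9ac folds of 75 and 66, H3K18la folds of 17.1 and 18 and ATAC peaks in both lists.

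In the Notch pathway, which keeps progenitors undifferentiated, 13 of 24 genes (54.2%) were nearest to a region, against 21.0% of all protein-coding genes. Of these 13, 10 rose and 3 did not pass the test, where 36.2% of all genes tested rose and 36.1% fell. In the whole Notch list, 17 of 24 rose and 3 fell. The receptor gene Notch1 had 6 regions and 526 and 533 CPM at day 4, against 29.7 and 27.6 CPM at day 0. The ligand gene Dll1 had 2 regions and rose by 5.38, and Maml3, a coactivator gene, had 10 and rose by 1.90. Among 25 pluripotency genes, 10 (40%) were nearest to a region, and of the 9 tested 3 rose and 6 fell, with a median of −1.42. In the whole pluripotency list, 22 were tested, 3 rose and 18 fell. Nanog had 3 regions with H3K9ac folds of 8.69 to 28.0 in replicate 1, while its RNA was 0.315 and 1.17 CPM at day 4, against 9.03 and 9.36 CPM at day 0. Sall4 had 5 regions and fell by 4.11. In the fibroblast and mesenchyme list, 7 of 18 genes (38.9%) were nearest to a region and all 7 rose, among them Col1a2 by 3.88. In the primitive streak and endoderm list, 6 of 15 (40%) were nearest to a region, and the 4 tested rose, with a median of 3.03 when genes at 0 are set at their bound. Gata6, one of the 4, lost its call without the second day 4 library.

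Among 27 genes of the retinoic acid response, 20 (74.1%) were nearest to a region, against 21.0% of all protein-coding genes. At day 4 against day 0, 17 rose and 2 fell, with a median of 4.96, where 36.2% of all genes tested rose and 36.1% fell. In the whole list of 27, 19 rose and 5 fell. At day 4 against day 2 DMSO, 6 of the 20 rose, a share near the 30.6% of all genes tested, and 10 fell, where 30.6% of all genes tested fell. Cyp26a1, the enzyme that degrades retinoic acid, had 30.3 and 40.8 CPM at day 4, against 547 and 575 CPM at day 2 with DMSO, and fell by 3.98 ± 0.102 on the log2 scale (edgeR adjusted p = 6.60e-15). It had 4 regions. The nearest, 1576 bases from the start at chr19:37695198-37696162, had H3K9ac folds of 10.8 and 11.6 at day 4, 26.4 in MS-275 and 112 in DMSO. The region 90909 bases away had 27.6 and 24.9 at day 4, 10.2 in MS-275 and 6.44 in DMSO, and ATAC peaks in both lists. Folds of different lists are not scaled to each other.

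Meis1, a homeobox partner of Hox proteins, had 7 regions and 318 and 332 CPM at day 4, against 1.05 and 0.897 CPM at day 0, a rise of 8.37. Its region 5980 bases from the start, chr11:19025631-19028080, had H3K9ac folds of 56.9 and 76, H3K18la folds of 9.44 and 13.8 and ATAC peaks in both lists. Another, chr11:18887522-18889913, had H3K9ac folds of 11.8 in replicate 1 and 115 in replicate 2, so that value rests on 1 library. Nr2f1, an orphan nuclear receptor, had 6 regions and rose by 9.81, and Dhrs3, which returns retinal to retinol, had 5 and rose by 4.61. Of 39 genes of the Hox clusters, whose proteins give cells their head-to-tail identity, 6 (15.4%) were nearest to a region, against 21.0% of all protein-coding genes. At day 4 against day 0, 5 of the 6 rose and 1 fell, where 36.2% of all genes tested rose and 36.1% fell. Of the whole list of 39, 32 were tested, 28 rose and 3 fell. Hoxb9 had 2 regions and 1350 and 1280 CPM at day 4, against 8.95 and 9.32 CPM at day 2 with DMSO, and rose by 7.17 ± 0.118 on the log2 scale (edgeR adjusted p = 6.38e-17).

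Against day 2 DMSO, the nearest genes with the largest rises at day 4 were Slc6a5, a glycine transporter, which had 43.4 and 32.8 CPM at day 4 and none with DMSO (at least 479-fold higher), Marchf4 (at least 127-fold), Fosb, an immediate early gene, which rose by 9.96, and Pax8 and Lamp5. Fosb was at 11.13 without DMSO replicate 1 and 9.36 without DMSO replicate 2. Pax8 and Lamp5 had 1 count each over the DMSO libraries, with 47.4 and 46.2 CPM and 18.3 and 18.6 CPM at day 4. The single region of Slc6a5, chr7:49922768-49923856, lay 15784 bases from its start and had H3K9ac folds of 24.3 and 19.7 and ATAC peaks in both lists. The largest falls were those of Lefty2, a Nodal antagonist (−6.85), Prtg (−5.70), Stk26 (−5.13), Vsir (−4.38) and Dact2 (−4.33).

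Between MS-275 and DMSO at day 2, 2978 of the 4024 nearest genes were called (74.0%), where 63.3% of all genes tested were. They rose in 1627 cases (40.4%) and fell in 1351 (33.6%), against 31.9% and 31.4% of all genes tested, and the median was 0.08 against 0.01. At least 2-fold changes were 23.1% up and 8.23% down, against 19% and 6.04% of all genes tested. For genes with 5 or more regions, 113 of 257 rose (44.0%) and 97 fell (37.7%). Of the 20 neural stem and progenitor genes, 4 rose and 15 fell, with a median of −1.42. Msi1, an RNA-binding protein of progenitors, had 69.1 and 68.7 CPM with MS-275, against 297 and 294 CPM with DMSO, and fell by 2.10. Sox2 fell by 1.29, Notch1 fell by 0.52 and Hes5, a Notch target, fell by 3.60, while Pax6, Sox9 and Sox11 rose by 1.44, 0.45 and 0.32.

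The nearest genes with the largest falls in MS-275 were Lrrc4, a synaptic adhesion gene (−6.54), Prdm13 (−4.63), Ntng2 (−4.59), Fgfbp3 (−3.74) and Dll4, a Notch ligand (−3.63). Among the largest rises were those of Col1a1 by 6.74, Rasgrf1 by 6.47, H2-Aa by 6.15 and Mapt, which encodes the microtubule protein tau, by 5.93. Mapt had 73.9 and 72.6 CPM with MS-275, against 1.1 and 1.31 CPM with DMSO. H2-Aa was at 5.34 without DMSO replicate 1 and 7.89 without DMSO replicate 2. The Mapt region 1232 bases from the start, chr11:104230641-104234323, carried H3K9ac and H3K9cr at day 2 with folds of 20.3 and 19.7 in MS-275 and 20.6 and 18 in DMSO, and H3K18la with a fold of 5.85 in MS-275 and no peak in DMSO.

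At day 8 against day 4, after retinoic acid was withdrawn, rises and falls among the nearest genes were near balance. Of 4024, 2277 were called (56.6%), where 41.5% of all genes tested were. They rose in 1219 cases (30.3%) and fell in 1058 (26.3%), against 21.7% and 19.8% of all genes tested, with a median of 0.00. At least 2-fold changes were 11.2% up and 5.59% down, against 9.25% and 3.69% of all genes tested. Genes with 5 or more regions were called in 74.7% of cases, with 96 up and 96 down. Of the neural stem and progenitor genes, 3 rose and 11 fell, and of the neuron genes 10 rose and 6 fell. The largest falls were those of Fosb (−5.34), Cyp26b1 (−5.26), Sp5 (−4.41), Cyp26a1 (−3.86) and F3 (−3.41), and the largest rises those of Ablim3 (5.69), Bcan, a brain extracellular matrix gene (5.6), Kndc1 (5.08), Nr5a1 (4.97) and Moxd1 (4.28). Fosb was at −7.15 without day 8 replicate 1 and −4.59 without day 8 replicate 2, and Kndc1 at 7.35 and 4.25 without day 4 replicates 1 and 2. Cyp26b1, like Cyp26a1 an enzyme that degrades retinoic acid, had 3.62 and 3.07 CPM at day 8, against 111 and 147 CPM at day 4.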

How the data were processed

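The deposited peak lists, 1 per ChIP or ATAC library, carry MACS2 column names per the file headers. Bowtie2 2.4.1, MACS2 2.2.7.1, Salmon 1.1.0 and the build GRCm38 come from the submitters' processing notes, and the settings and controls of the peak caller are not given in the sources used here. Each deposited peak has a position, a pileup signal, a −log10 p-value and −log10 q-value and a fold enrichment, a ratio over local background by the authors' caller, used only to describe and rank peaks within a list. The deposited RNA table held estimated counts per gene, rounded here before testing. How transcripts were summed, and whether strand was used, was not given, so overlapping and antisense genes cannot be told apart. Inputs were not used.

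Regions overlap a peak from 1 shared base. The gene ends, starts and miRNA genes are those of RefSeq, and the windows and miRNA sequences those of RefSeq GRCm38.p6. No genome sequence was used, so windows at ATAC summits were replaced by listed promoter windows and miRNAs. A gene with no listed strand, 4395 of 21887, was measured from its nearer end. Chromosome 18 sequences are not shown.

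RNA was tested with edgeR 4.0.16 (R 4.3.3): TMM scaling, filterByExpr, 1 quasi-likelihood fit over the 10 libraries and 5 groups, and Benjamini-Hochberg adjustment over 17789 genes. A gene was called at an adjusted p under 0.05. CPM used TMM library sizes, compare only within a gene, and are not per length. Of 55385 identifiers, 55144 matched a symbol. Folds against a group with no counts are bounds against 3 counts over the group. The replicates are called biological, with nothing on separate cultures, so p-values measure the spread between these libraries, which may be technical. No 2 replicates agreed within counting noise. Simulated data tested the scripts.

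The named regions are the 8 strongest by lowest rank over 6 lists and the 3 widest. The named genes are the 12 nearest to most regions, per comparison the 5 largest rises and falls among nearest genes (called, at least 2-fold, mean of at least 5 CPM, groups apart, no predicted genes or pseudogenes), and up to 4 genes of each list with most regions. Other genes named were chosen after their values were seen. Some genes that this rule names are not reported here. The regions and lists were chosen with earlier results of these data known. Alternatives were RLE scaling, no filter, DESeq2 1.42.0, a replicate block, fewer libraries, stricter peaks, other distances and shorter windows.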

Additional observations from a re-analysis of the deposited data

Results flagged for a closer look

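The shares of distal triple-marked regions with a peak at day 2 differed between MS-275 and DMSO in opposite directions for the marks: MS-275 minus DMSO was 20.1 percentage points for H3K9ac, 19.2 for H3K9cr and −28.7 for H3K18la. Each value comes from 1 library per condition, so the difference was not tested. The MS-275 lists cover 122, 107 and 16.3 Mb and the DMSO lists 34.2, 32.5 and 26.8 Mb for the 3 marks, and their part in the result was not tested. The sign of each difference was the same with peaks of a −log10 q-value of at least 5 (20.1, 18.2 and −36.5) and with peaks that cover at least 50% of a region (36.0, 33.0 and −27.4), alternatives chosen after seeing the data.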

How the results depend on the processing

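The share of distal triple-marked regions with an ATAC peak in both lists (46.3%) was 36.3% (36.26%) with peaks of a −log10 q-value of at least 5, and 53.02% to 61.53% with 1 library left out. All 3 marks were listed in MS-275 at 41.1% and in DMSO at 56.9%; where peaks must cover at least 50% of a region, this was 8.209% in MS-275 and 23.79% in DMSO, and with a −log10 q-value of at least 5 it was 25.06% and 50.6%. For regions over 5 kb from gene ends the DMSO share was 54.15%. The count of regions was 7025 to 12122 under the other rules tried. Counts of called genes lay within 1.5 times the reported ones under each alternative run: with DESeq2 the nearest genes called were 3150 at day 4 against day 0, 2811 at day 4 against day 2 DMSO, 2060 at day 8 against day 4 and 2788 for MS-275. With 1 library left out they were 3104 to 3136, 2683 to 2722, 1929 to 2112 and 2702 to 2782, the lone sample being assumed to vary like the other groups. Replicate numbers share only a number, with correlations of deviations between −0.0306 and 0.0378, and with the replicate block 3272, 2952, 2273 and 2970 nearest genes were called. Among single genes of the lists, 43 values lost the call and 24 gained it under some alternative, 11 uncalled values changed sign and 2009 did neither. In windows of 200 bases at protein-coding starts in the regions, the E-box share was 10.5% and the Sp and KLF motif share 55.9%. In windows of 300 bases they were 17.1% and 61.9%. Over all protein-coding windows of 200 bases they were 10.0% and 40.8%. Peak lists give no depth, so a missing peak may lie under what a library can show.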
